A study of Rattus norvegicus with 36 samples.

Results

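The mitochondrially encoded respiratory chain genes examined here were 10 of the 32402 genes counted in the rat dorsal striatum. They were chosen by gene ID, with earlier results of these data known, although no measured value entered the rule. Complex I (NADH dehydrogenase) was represented by Nd1 (ENSRNOG00000030644), Nd2 (ENSRNOG00000031033), Nd3 (ENSRNOG00000033615), Nd4 (ENSRNOG00000029707) and Nd5 (ENSRNOG00000029971). Complex III (cytochrome bc1) was represented by Cytb (ENSRNOG00000031766). Complex IV (cytochrome c oxidase) was represented by Co1 (ENSRNOG00000034234), Co2 (ENSRNOG00000030371) and Co3 (ENSRNOG00000030700). ATP synthase, complex V, was represented by Atp6 (ENSRNOG00000031979). All 10 genes passed the filter on low counts, as did 15884 genes in total. The count files pair no names with these IDs, so the names are those that came with the list of IDs and were not checked against an annotation.

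Mitochondria keep a small circular genome of their own, which encodes core subunits of the respiratory chain, while most subunits are encoded in the nucleus. The mitochondrial genome is transcribed as long precursors from both strands, and these are cut into the single messages, most of which receive a poly(A) tail. Neurons depend on the respiratory chain for most of the ATP that drives ion pumping and synaptic transmission, and mitochondrial messages are among the most abundant poly(A) RNAs of brain tissue.

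RNA was sequenced from male Sprague-Dawley rats of 8 weeks that took part in a study of motor tolerance to cocaine. Sal–Sal rats received 15 saline injections, Sal–Coc rats received 13 saline and then 3 cocaine injections, and Coc–Coc rats received 15 cocaine injections. The injections were given in daily binges, so cocaine reached Sal–Coc rats on the final day alone, and tissue was taken a day after the final injection. Each group had 3 pools, numbered 5, 6 and 7, each made from the tissue of 2 rats and deposited as 4 technical replicates, a to d. The 13 and 3 injections of Sal–Coc exceed the 15 of the other groups by 1, a discrepancy in the labels that was not resolved. The labels name the tissue dorsal striatum, although their extraction text mentions the nucleus accumbens as well as the caudate putamen. As the IDs of neuronal and glial marker genes could not be matched to names, the tissue label was not checked against markers.

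Total counts ran from 29870775 to 39493867 per pool, and the technical replicates of a pool were summed. Pool 5 of Coc–Coc had the highest total and pool 5 of Sal–Coc the lowest. The scaling factors of the pools (TMM, which correct library size for differences in composition) ran from 0.961 to 1.04. P-values for differences between groups set those differences against the spread between pools. In bulk tissue, a larger share of mitochondria-rich cells and more mitochondrial RNA per cell cannot be told apart.

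The 10 genes together took between 11.4% and 15.7% of all counts of a pool. In Sal–Sal their share was 13.1%, 12.9% and 12.2% in pools 5, 6 and 7, with a mean of 12.7% ± 0.44 (SD, n = 3). In Sal–Coc the share was 15.4%, 14.1% and 13.7%, with a mean of 14.4% ± 0.89 (SD, n = 3). Every Sal–Coc pool was above every Sal–Sal pool. In Coc–Coc the share was 11.4%, 15.7% and 14.2%, with a mean of 13.8% ± 2.21 (SD, n = 3). Coc–Coc therefore held both the lowest and the highest share of the 9 pools, and pool 5 lay below all pools of the other groups. The 95% Wilson interval of a pool's share was at most 0.026 percentage points wide, so counting error was far smaller than the distance between pools. No molecular identifiers were used, so these intervals cover no more than counting error.

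**Figure D1:**
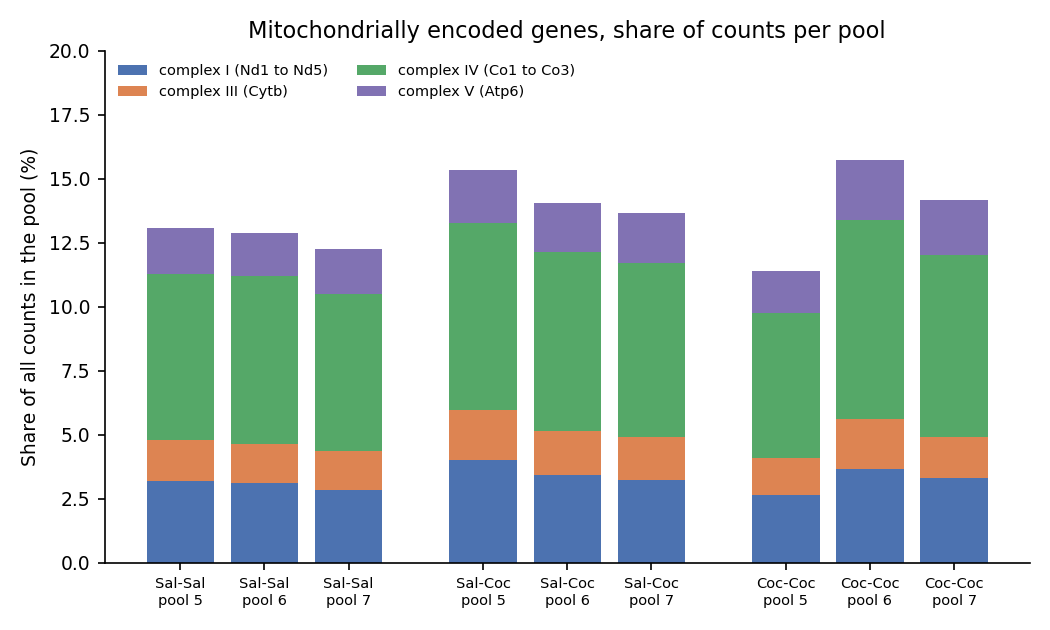
Share of all counts (%, y axis from 0) taken by the 10 genes in each of the 9 pools, stacked by respiratory chain complex. The 3 Sal-Coc bars (13.7% to 15.4%) stand above the 3 Sal-Sal bars (12.2% to 13.1%), and Coc-Coc spans 11.4% to 15.7%.

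The share was 1.62 percentage points higher in Sal–Coc than in Sal–Sal, with an exact two-sided permutation p of 0.1, the smallest that 3 against 3 pools can give, and 0.3 after Benjamini-Hochberg adjustment over the 3 comparisons. Coc–Coc was 1.02 points above Sal–Sal (exact permutation p = 0.5, adjusted 0.75), a difference that was 2.21 points without pool 5 of Coc–Coc and 0.029 points without pool 6. Coc–Coc was 0.6 points below Sal–Coc on average, a difference of -0.6 with an exact permutation p of 0.9. Over the 3 groups at once, the exact permutation test on the sum of squares between groups gave p = 0.396 from 1680 assignments of the pools. Without pool 5 of Coc–Coc this exact p was 0.0821, and leaving out each pool in turn gave values up to 0.65. The 3 comparisons share pools, so they are not independent of each other.

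All 4 complexes were counted at a higher share of the library in Sal–Coc than in Sal–Sal. The 5 complex I genes took 3.06% ± 0.18 of all counts in Sal–Sal, against 3.55% ± 0.41 in Sal–Coc and 3.21% ± 0.51 in Coc–Coc (SD, n = 3 pools). The 3 complex IV genes took 6.4% ± 0.23, 7.02% ± 0.27 and 6.85% ± 1.09 in the same order. Cytb alone took 1.53% ± 0.064, 1.79% ± 0.14 and 1.66% ± 0.26, and Atp6 took 1.75% ± 0.035, 2.0% ± 0.082 and 2.04% ± 0.37. In each complex the SD of Coc–Coc was the largest of the 3 groups.

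Levels of single genes are given in CPM, the count of a gene scaled to a common library size with TMM factors, in pools 5, 6 and 7 of each group. They are read counts and not levels per length, since gene lengths were not used here, so values are compared between pools and not between genes. Nd1, a core membrane subunit beside the ubiquinone site of complex I, was at 12019, 11756 and 10248 CPM in Sal–Sal, at 14568, 12595 and 12227 CPM in Sal–Coc, and at 9512, 14196 and 12074 CPM in Coc–Coc. Its lowest Sal–Coc pool exceeded its highest Sal–Sal pool by little, and Coc–Coc pool 5 was the lowest of all. Nd2, one of the antiporter-like proton-pumping subunits, was at 12506, 13093 and 11501 CPM in Sal–Sal, at 18055, 13680 and 13455 CPM in Sal–Coc, and at 10683, 15352 and 13466 CPM in Coc–Coc. Pool 5 of Sal–Coc stood apart from the other 8 pools for this gene.

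Nd4 and Nd5 also encode antiporter-like subunits of the proton-pumping arm. Nd4 was at 129, 117 and 102 CPM in Sal–Sal, at 169, 148 and 139 CPM in Sal–Coc, and at 105, 171 and 187 CPM in Coc–Coc. For Nd4 the lowest pool was Sal–Sal pool 7, and Coc–Coc pool 5 lay within the Sal–Sal range. Nd5 was at 6471, 5520 and 5335 CPM in Sal–Sal, at 7850, 7335 and 6839 CPM in Sal–Coc, and at 5225, 7762 and 7220 CPM in Coc–Coc. The Sal–Sal and Sal–Coc pools of Nd5 did not overlap, and Coc–Coc pool 5 was below all of them.

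Nd3, a small complex I subunit next to Nd1, was at 370.5, 386 and 390 CPM in Sal–Sal, at 435, 396 and 442 CPM in Sal–Coc, and at 319, 559 and 562 CPM in Coc–Coc. The Sal–Sal pools lay close together. Pools 6 and 7 of Coc–Coc were above all other 7 pools, and pool 5 of Coc–Coc was below them all. Nd3 and Nd4 had far fewer reads than the other 8 genes: 12121 to 21127 counts per pool for Nd3 and 3741 to 6457 for Nd4, against at least 191564 for each of the rest. By read count, the 8 abundant genes ranked between 1 and 9 among all genes listed, whereas Nd3 ranked 256 and Nd4 ranked 1300. The authors removed reads that mapped to more than 1 place, and the part of that step in these low counts was not tested.

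Cytb, the subunit of complex III that carries its b-type haems, was at 15812, 14700 and 14453 CPM in Sal–Sal, at 19967, 17072 and 17411 CPM in Sal–Coc, and at 13948, 20257 and 16173 CPM in Coc–Coc. The Sal–Coc pools were all higher than the Sal–Sal pools. Within Coc–Coc, pool 6 held the highest Cytb value of the 9 pools and pool 5 the lowest.

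Co1, the catalytic subunit of cytochrome c oxidase where oxygen is reduced, was at 39375, 38890 and 36100 CPM in Sal–Sal, at 44688, 41795 and 42584 CPM in Sal–Coc, and at 33247, 48831 and 42481 CPM in Coc–Coc. It had the most reads of any gene listed in the files. Co2, which takes up electrons from cytochrome c, was at 11892, 13090 and 11325 CPM in Sal–Sal, at 14805, 14167 and 13611 CPM in Sal–Coc, and at 10365, 16961 and 16363 CPM in Coc–Coc. As for Nd3, pools 6 and 7 of Coc–Coc exceeded the other 7 pools. Co3, a structural core subunit without a redox centre, was at 12697, 12626 and 11848 CPM in Sal–Sal, at 15426, 13777 and 13226 CPM in Sal–Coc, and at 11309, 15292 and 12983 CPM in Coc–Coc. Coc–Coc pool 7 exceeded the highest Sal–Sal pool of Co3 by little.

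Atp6, which forms the proton path of ATP synthase, was at 17535, 16864 and 16974 CPM in Sal–Sal, at 21386, 19246 and 20232 CPM in Sal–Coc, and at 15805, 24455 and 21584 CPM in Coc–Coc. The Sal–Sal pools were close together, with an SD of 360 around 17124 CPM. The SD was 4406 around 20615 CPM in Coc–Coc.

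**Figure D2:**
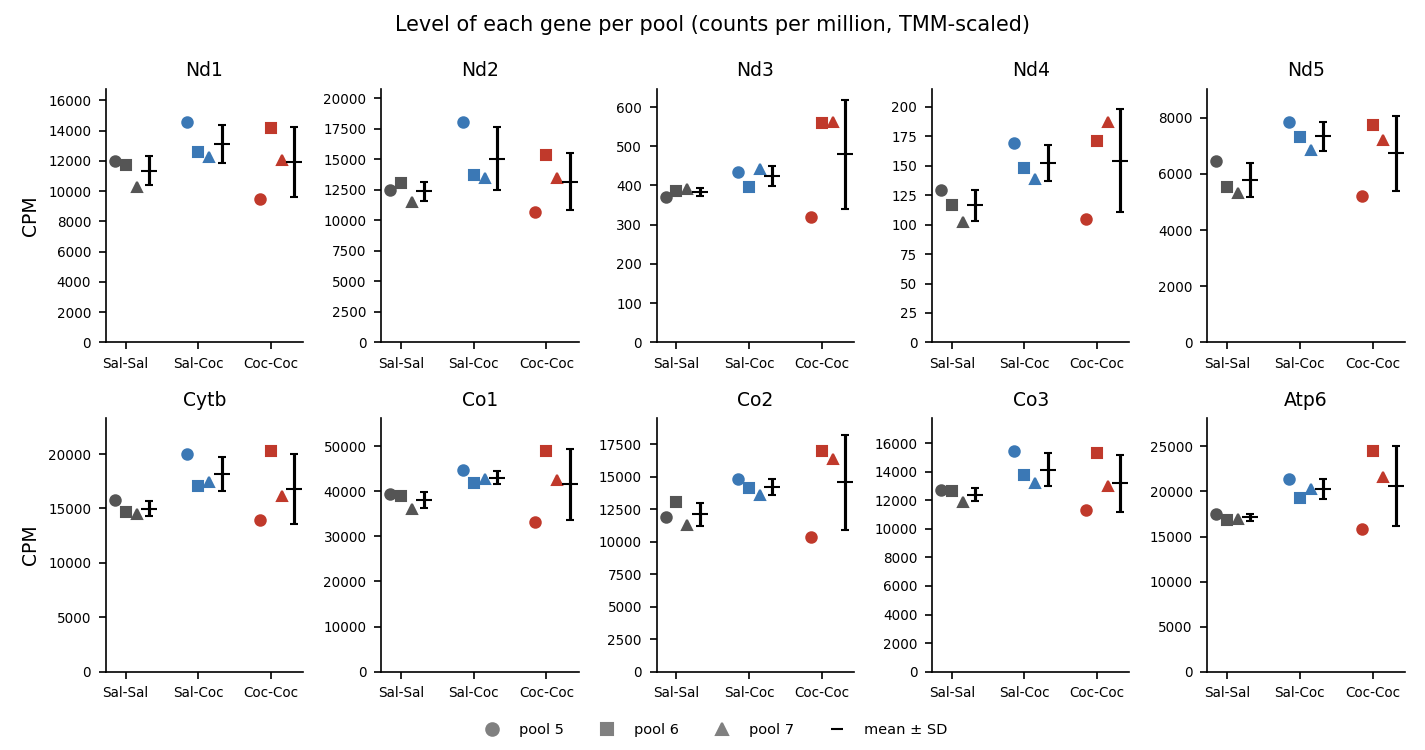
CPM of each gene (y axes from 0, a scale per gene) by group, with symbols for pools 5, 6 and 7 and a bar for the mean ± SD of 3 pools. In all 10 panels the Sal-Coc points lie above the Sal-Sal points, and Coc-Coc pool 5 is the lowest point in every panel but that of Nd4.

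For the most part the 10 genes moved together from pool to pool. All 10 were below their 9-pool median in each of the 3 Sal–Sal pools and in pool 5 of Coc–Coc. All 10 were above it in pool 5 of Sal–Coc and in pool 6 of Coc–Coc. In Sal–Coc pools 6 and 7 and Coc–Coc pool 7, 7, 6 and 7 genes were above it and 0 below. Within Sal–Sal, however, Nd3 rose from pool 5 to pool 7 while the summed CPM fell. No share of all genes is given beside these counts. Pool 5 of Coc–Coc held the lowest value of 9 of the 10 genes, with single genes between 0.1 and 0.26 below the Sal–Sal mean on the log2 scale. Pool 5 of Sal–Coc and pool 6 of Coc–Coc each held the highest value of 4 genes, and pool 7 of Coc–Coc that of Nd3 and Nd4. The Pearson correlation of log2 CPM of a gene with that of the summed counts lay between 0.804 for Nd3 and 0.987 for Co1 over the 9 pools, which share library and depth and include each gene in the sum.

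Sal–Coc against Sal–Sal asks what a single day of cocaine after saline leaves a day later. In TMM-scaled CPM, all 10 genes were higher in every Sal–Coc pool than in any Sal–Sal pool, as were 8.87% of all tested genes. The 10 genes moved together over the pools, so they are not independent results and no test against that percentage was made. The lack of overlap depended on the scaling. As unscaled shares of all counts, Nd1, Nd2, Nd3 and Co2 overlapped between the 2 groups. For Nd1, Sal–Coc pool 7 was at 1.19% and Sal–Sal pool 5 at 1.22%. For Nd2, Sal–Coc pool 7 was at 1.31% and Sal–Sal pool 6 at 1.33%. Their log2 fold changes ran from 0.15 for Nd3 to 0.39 for Nd4, with standard errors between 0.12 and 0.19. The median over the 10 genes was 0.24, against 0.011 over all genes tested, and 53% of all genes had a log2 fold change above 0. The 3 largest differences were in complex I: 0.39 ± 0.19 for Nd4, 0.35 ± 0.15 for Nd5 and 0.28 ± 0.16 for Nd2 (log2 ± SE), while Cytb was at 0.28 ± 0.14, Atp6 at 0.24 ± 0.15 and Co1 at 0.17 ± 0.14. Nd3, also of complex I, had the smallest of the 10. The value of Nd2 rested on pool 5 of Sal–Coc: without it Nd2 was at 0.13, below Atp6 at 0.21, Cytb at 0.2 and Co2 at 0.2.

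None of these differences passed the test. With edgeR, 0 of 10 genes had an adjusted p under 0.05, as did 0% of all genes, and the lowest adjusted p was 0.608. At an unadjusted p under 0.05 edgeR gave 1 of the 10 genes, Nd5, against 7.96% of all genes. DESeq2 called 0 of the 10 genes at an adjusted p under 0.05, and 59 genes or 0.389% of those it tested. The summed counts of the 10 genes were 1.17-fold higher, a log2 fold change of 0.23 with a 95% interval from -0.12 to 0.57 (edgeR, adjusted p = 0.756).

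The standard errors of this comparison depended on whether Coc–Coc entered the fit, because all groups shared an estimate of the spread. When the 6 pools compared were fitted alone, all 10 genes had an unadjusted p under 0.05 in edgeR, as did 12.8% of all genes. The lowest adjusted p was then 0.195, for Nd4, and 0 genes were called. Without pool 5 of Coc–Coc, all 10 genes again had an unadjusted p under 0.05 in edgeR, beside 12.3% of all genes. The lowest adjusted p was 0.196, for Nd5. That pool was singled out by these same values, so a smaller spread was built into leaving it out. The 10 genes moved together over the pools, so counts of all 10 are not independent results. The log2 fold changes of the 10 genes kept their sign under every alternative run for this comparison.

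The 100 most abundant of the other genes shared part of this pattern. Of these, 83 had a log2 fold change above 0 in Sal–Coc against Sal–Sal, with a median of 0.1, and 22 were higher without overlap. In Coc–Coc against Sal–Sal, 57 of the 100 had a log2 fold change above 0, with a median of 0.028, and 9 were higher without overlap. Which of these 100 genes are mitochondrial was not analysed here, and no test of the 10 genes against them was made.

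Coc–Coc against Sal–Sal asks what repeated daily cocaine leaves. All 10 log2 fold changes were above 0, as were 53.3% of those of all genes, and ran from 0.07 for Nd1 to 0.41 for Nd4. Their median was 0.19, against 0.013 over all genes. In 0 of the 10 genes did the Coc–Coc pools all lie above the Sal–Sal pools, beside 6.5% of all genes, because pool 5 of Coc–Coc was low in each. Nd4 was at 0.41 ± 0.19, Nd3 at 0.33 ± 0.18, Atp6 and Co2 both at 0.27 with SEs of 0.15 and 0.17, and Nd1, Nd2 and Co3 at or under 0.091 (log2).

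With edgeR, 0 of the 10 genes passed an adjusted p of 0.05, as did 0% of all genes, with a lowest adjusted p of 0.687. At an unadjusted p under 0.05 edgeR gave 0 of the 10 genes and 7.18% of all genes. DESeq2 called 0 of the 10, with 24 genes or 0.145% called in all. The summed counts were 1.12-fold higher, a log2 fold change of 0.16 with a 95% interval from -0.19 to 0.51 (edgeR, adjusted p = 0.801).

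This comparison depended on pool 5 of Coc–Coc. That pool was singled out by these same values, as the lowest of Coc–Coc in each of the 10 genes. Leaving it out therefore raised Coc–Coc and lowered the spread by construction, and no conclusion is drawn from the values without it. The 10 genes also moved together, so counts of them are not independent results. Without pool 5, pools 6 and 7 of Coc–Coc were above all Sal–Sal pools in TMM-scaled CPM in 10 of 10 genes, beside 12.6% of all genes. Without this pool, edgeR called Nd3, with a log2 fold change of 0.55 and an adjusted p of 0.0212. It was 1 of 4 genes called among 16019. In that fit 7 of the 10 genes had an unadjusted p under 0.05, as did 6.5% of all genes, and the summed counts were 0.3 higher on the log2 scale (edgeR, adjusted p = 0.715). Without pool 6 instead, 5 of the 10 genes were higher in Coc–Coc and the summed counts were at 0.017.

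Coc–Coc against Sal–Coc sets repeated cocaine against a single day of it. Here the genes divided by member: 4 of 10, Nd3, Nd4, Co2 and Atp6, had a log2 fold change above 0, as had 52.6% of all genes, and the other 6 were below 0. Nd3 was at 0.18 ± 0.18 and Nd2 at -0.19 ± 0.16 (log2 ± SE), the ends of the range. The median was -0.076, against 0.0094 over all genes. The 100 most abundant other genes had a similar median of -0.067, and 35 of them had a log2 fold change above 0. The groups overlapped in every gene, so 0 of 10 were higher without overlap, beside 5.08% of all genes.

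By edgeR, 0 of the 10 genes passed an adjusted p of 0.05 (0% of all genes, lowest adjusted p of the 10 genes 0.754), and 0 had an unadjusted p under 0.05, against 6.93% of all genes. DESeq2 called 0 of the 10, and 2 genes or 0.00857% of all it tested. The summed counts had a log2 fold change of -0.068 with a 95% interval from -0.41 to 0.28 (edgeR, adjusted p = 0.919). Without pool 5 of Coc–Coc, the sum turned to 0.073. Then 4 of 10 genes were higher in both remaining Coc–Coc pools than in any Sal–Coc pool, beside 9.78% of all genes. They were the same Nd3, Nd4, Co2 and Atp6. Pool 5 was the lowest of Coc–Coc in each of the 10 genes, so leaving it out raised Coc–Coc by construction. Without pool 6 or without pool 7 of Coc–Coc, 1 of the 10 genes had a log2 fold change above 0.

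**Figure D3:**
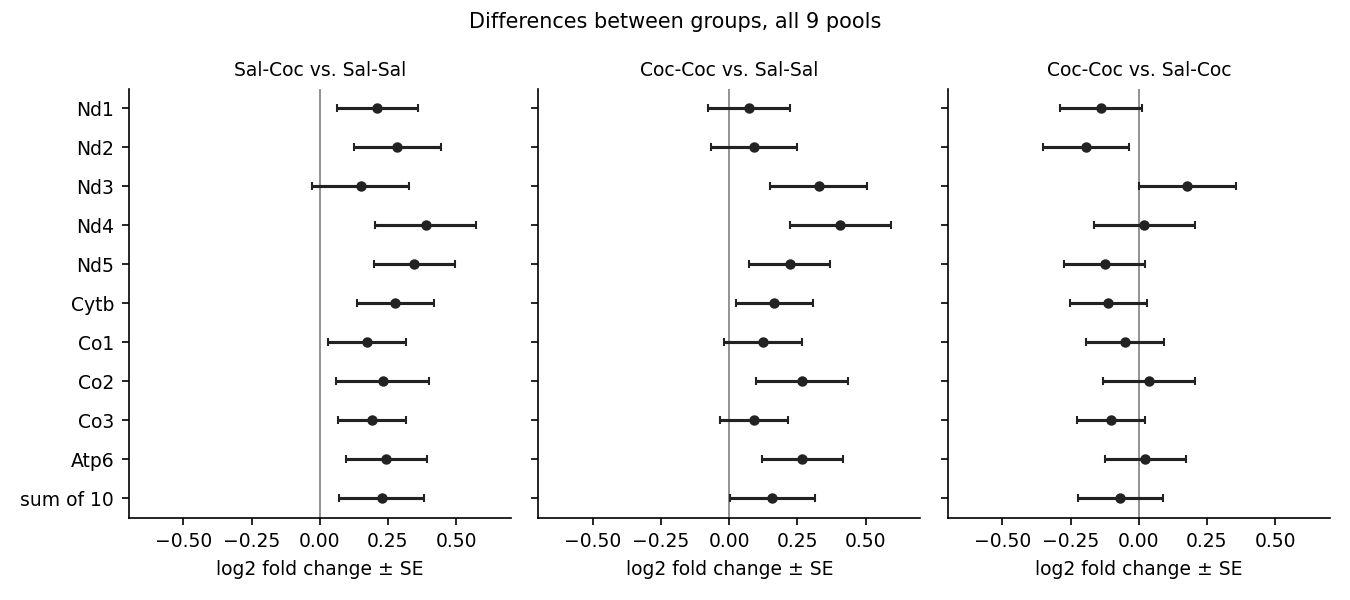
Log2 fold change ± SE (x axis) of each gene and of their summed counts in the 3 comparisons, from the edgeR fit to 9 pools. All points of the first and middle panels lie right of 0, from 0.07 to 0.41. In the third panel 4 genes lie right of 0, of which Nd4, Atp6 and Co2 are near it, and 6 lie left.

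Within groups, each gene's share of the 10 genes' counts had a smaller SD on the log2 scale than its CPM. Pool 5 of Coc–Coc, low in these genes, widened the spread of CPM. Within Sal–Sal alone the composition was not steadier throughout. There the 10 genes' share of all counts was 12.74% ± 0.44 (SD, n = 3). Of the 10 genes' counts, Nd5 made up 4.63% ± 0.35 and Co1 30.57% ± 0.045. Co1 made up 28.4% to 30.6% of the counts of the 10 genes, Atp6 13.3% to 15.1%, Cytb 11.3% to 12.7%, Nd2 9.37% to 11.5%, Co2 9.23% to 11.4%, Co3 9.07% to 10.2%, Nd1 8.44% to 9.33% and Nd5 4.35% to 5.23%. Nd3 made up 0.276% to 0.393% and Nd4 0.0866% to 0.131%. These shares do not depend on how the libraries were scaled. The SD of their log2 values within groups was 0.03 for Co1, between 0.044 and 0.099 for the other 7 abundant genes, and 0.15 and 0.16 for Nd3 and Nd4.

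By complex, the genes of complex IV made up 50.2% ± 0.6 of the 10 genes' counts in Sal–Sal, but 49% ± 1.17 in Sal–Coc and 49.8% ± 0.36 in Coc–Coc (SD, n = 3). Complex I made up 24% ± 0.62, 24.7% ± 1.28 and 23.3% ± 0.11 in the same order. Atp6 made up 13.7% ± 0.55, 13.9% ± 0.45 and 14.8% ± 0.41. The exact permutation test over the 3 groups, applied to each gene's share, gave 0 of 10 genes at an adjusted p under 0.05 and 0 at an unadjusted p under 0.05, with a lowest adjusted p of 0.429 over the 10 genes. Without pool 5 of Coc–Coc, 3 genes (Nd3, Nd4 and Co3) had an unadjusted exact permutation p under 0.05, with a lowest adjusted p of 0.131. The count was 1 without Sal–Sal pool 5 (Nd5), Sal–Sal pool 7 (Nd1) or Sal–Coc pool 7 (Co1) and with the pool number as a block (Nd3), and no adjusted p was under 0.05 in any of these settings.

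The shares of the 10 genes were also compared in each of the 3 pairs of groups, without adjustment of these p-values. Some shares did not overlap, each with an exact permutation p of 0.1 that 3 against 3 pools cannot go below. Among so many comparisons some such gaps can arise by chance. The shares are also tied to each other, because a rise in some lowers the rest. Co1 made up 30.6%, 30.6% and 30.5% of the 10 genes' counts in Sal–Sal, but 28.4%, 29.8% and 30.4% in Sal–Coc and 30.1%, 29.8% and 29.7% in Coc–Coc. The Sal–Sal pools were thus all above the pools of both cocaine groups, although Co1's level was higher in Sal–Coc than in Sal–Sal. The share of Co3 was lower in Sal–Coc than in Sal–Sal by 0.25 points, with no overlap. Nd2's share was lower in Coc–Coc than in Sal–Sal by 0.43 points and Nd1's was lower in Coc–Coc than in Sal–Coc by 0.42 points, both without overlap.

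Single pools stood out in composition. In pool 5 of Sal–Coc, Nd2 made up 11.5% of the 10 genes' counts, against 9.37% to 10.3% in the other 8 pools, and Co1 had its lowest share. In pool 7 of Coc–Coc, Co2 made up 11.4%, Nd3 0.393% and Nd4 0.131%, each the highest of the 9 pools, while Cytb at 11.3% and Co3 at 9.07% had their lowest shares. Pool 5 of Coc–Coc, lowest in total, had Co3 at its highest share, 10.2%, and the shares of the other 9 genes within the range of the other 8 pools.

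**Figure D4:**
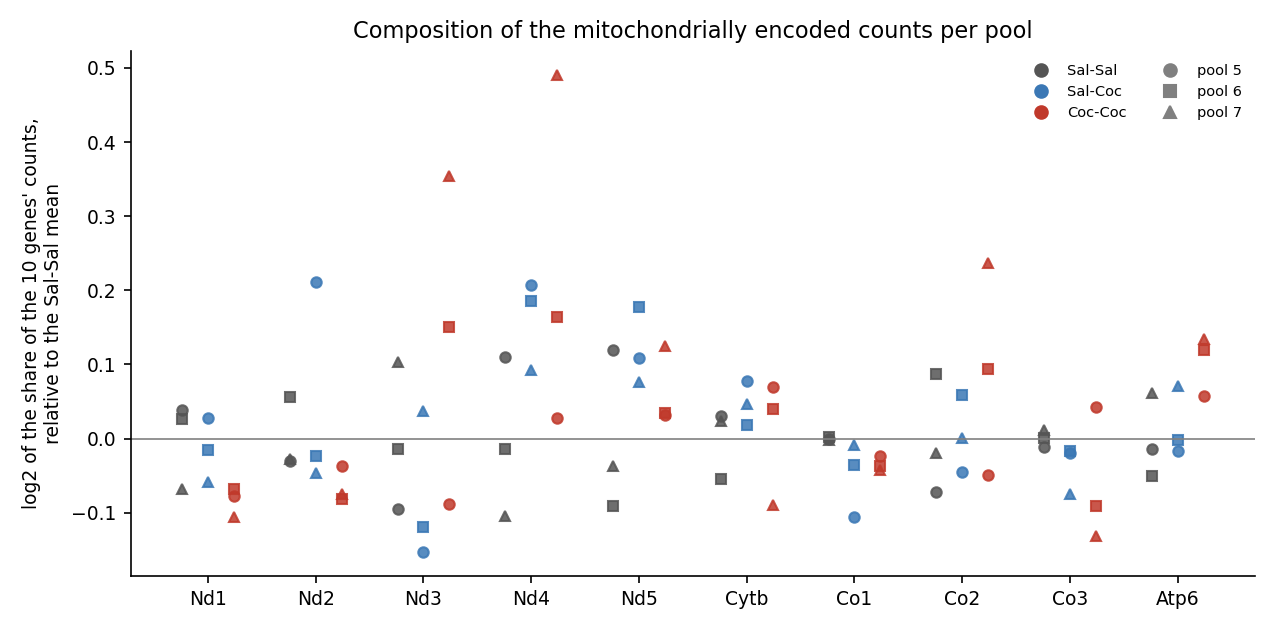
Log2 of each gene's share of the 10 genes' counts relative to its Sal-Sal mean (y axis), with colours for groups and symbols for pools 5, 6 and 7. Points of Co1 in Sal-Coc and Coc-Coc lie below those of Sal-Sal, pool 5 of Sal-Coc the lowest. Pool 5 of Sal-Coc is high for Nd2, and pool 7 of Coc-Coc is high for Nd3, Nd4 and Co2.

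The level of the 10 genes had a higher median spread between pools of a group than that of all genes tested. Their SD of log2 CPM within groups had a median of 0.2 and ran from 0.15 for Co3 to 0.29 for Nd4, against medians of 0.16 for the 100 most abundant other genes and 0.15 for all genes. Among those 100 genes, 54 were at least as spread as Co3, 47 as Co1 and 5 as Nd4. Without pool 5 of Coc–Coc the medians were 0.11, 0.085 and 0.12. The median of the 10 genes then lay below that of all genes, although Nd1, Nd2, Nd4 and Cytb were above it. That pool held the lowest value of 9 of the 10 genes, so a fall in their spread was built into leaving it out. No conclusion is drawn from the changed order of the medians.

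**Figure D5:**
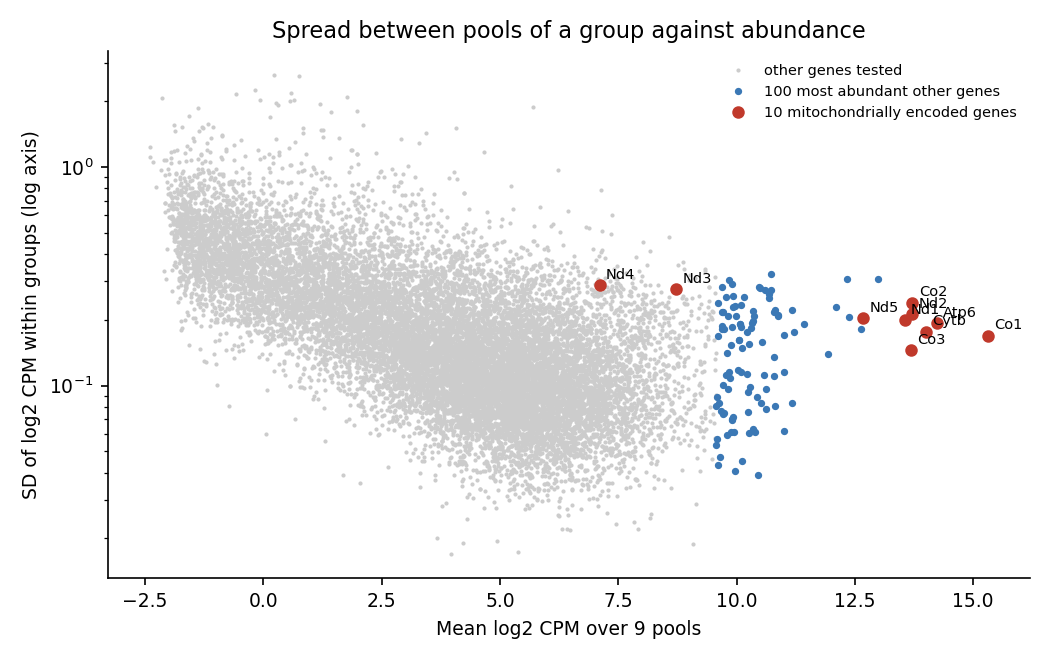
SD of log2 CPM between pools of a group (log y axis) against mean log2 CPM over 9 pools (x axis) for the 15884 genes tested. The 10 genes, named, lie between 0.15 and 0.29, within the range of the 100 most abundant other genes (0.039 to 0.32).

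Of 9740 genes with a mean of at least 10 CPM, ENSRNOG00000020254 followed the summed counts of the 10 genes most closely over the 9 pools, with a Pearson correlation of 0.954. It was at 60.2 ± 2.01 CPM in Sal–Sal, against 73.7 ± 4.01 in Sal–Coc and 68.5 ± 19.9 in Coc–Coc (SD, n = 3), with 47.5 CPM in Coc–Coc pool 5. ENSRNOG00000015278 came next at 0.931, with 27.2 ± 0.47, 29.9 ± 1.25 and 28.5 ± 1.67 CPM. The most opposite patterns were those of ENSRNOG00000016631 (-0.895) and ENSRNOG00000016920 (-0.894), which were highest in Coc–Coc pool 5 at 16.5 and 20.4 CPM. These correlations describe 9 pools that share depth and scaling, and no table at hand names the 4 genes.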

How the data were processed

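The authors prepared stranded libraries from poly(A) RNA, sequenced single reads, aligned them with STAR to the rat genome of Ensembl and removed reads mapping more than once; their notes also name HTSeq 0.5.3 and bcl2fastq 2.18.0.12. The deposited files held raw counts per Ensembl gene for 36 samples. The counts of the 4 technical replicates were summed per pool. A chi-square comparison of the genes' share among them was made separately and did not decide the summing.

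All 9 pools were fitted with edgeR 4.0.16 in R 4.3.3 (filterByExpr with a minimum count of 10 and a minimum total of 15, TMM, 1 mean per group, quasi-likelihood F-test with 6 residual and 4.1 prior degrees of freedom). P-values were adjusted by the Benjamini-Hochberg method over the 15884 genes tested, with a threshold of 0.05. In a further fit the 10 rows were replaced by their sum. Standard errors came from the F statistic, and 95% intervals from the t distribution. Log2 CPM used a prior count of 2. Shares were compared by exact permutation of pools. DESeq2 1.42.0 was an alternative, as were other scalings and filters, a fit of the 6 pools compared, technical replicate a alone, the pool number as a block, and leaving out each pool. Counts of genes without overlap used TMM-scaled CPM, and those that left out a pool were chosen after seeing the data. The scripts were tested on simulated data.

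Same-numbered pools came from different rats, and their deviations from the group means correlated between -0.193 and 0.156 over genes. Pools of unlike number were not correlated for reference, so whether a number marks a shared step of preparation was not tested. The reported fit did not pair the pools.

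All 10 genes were named. The other 4 gene IDs were the 2 highest and 2 lowest correlations with the summed counts. The gene list and the lists of other respiratory chain and cell type genes were chosen with earlier results of these data known. The RefSeq gene table for GRCr8 matched 0 of the 32402 IDs, so those other lists, gene lengths and positions were not used here.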

Additional observations from a re-analysis of the deposited data

How the results depend on the processing

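Leaving out each pool in turn gave 0 to 1 genes past an adjusted p of 0.05 in Coc–Coc against Sal–Sal (Nd3, edgeR), 0 to 10 genes higher in Coc–Coc than Sal–Sal without overlap and 0 to 4 higher than Sal–Coc. For Coc–Coc against Sal–Coc, the log2 fold change of the summed counts ran from -0.21 to 0.073 and the difference in share from -1.59 to 0.59 points. The difference in share between Coc–Coc and Sal–Sal ran from 0.029 to 2.21 points and the exact permutation p over the 3 groups from 0.0821 to 0.65. In Coc–Coc against Sal–Sal, single log2 fold changes ran from -0.079 to 0.21 for Nd1, -0.042 to 0.22 for Nd2, -0.00074 to 0.28 for Cytb, -0.017 to 0.26 for Co1 and -0.036 to 0.19 for Co3, all negative ends being without Coc–Coc pool 6. In Coc–Coc against Sal–Coc they ran from -0.29 to 0.00037 for Nd1, -0.14 to 0.23 for Nd4, -0.24 to 0.029 for Nd5, -0.27 to 0.00499 for Cytb, -0.19 to 0.086 for Co1, -0.0896 to 0.23 for Co2 and -0.12 to 0.18 for Atp6. The cause was not tested. Of 540 alternative values of single genes, 523 kept their direction, and the 17 that did not all came from leaving out a pool, 0 of them in Sal–Coc against Sal–Sal. The other scalings, filters, DESeq2 and technical replicate a alone moved no gene across the threshold or 0. With the replicate block, the log2 fold changes of the summed counts were 0.23, 0.15 and -0.077, and 0 of 10 genes passed in each comparison, so the block changed no call. Counting error of the share was small against the spread between pools, and with 3 against 3 pools an exact p cannot go below 0.1.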

Other observations

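The technical replicates of a pool differed little in the share of the 10 genes, with technical replicate a the highest in every pool. Within a pool the share ranged over 0.041 to 0.074 percentage points, against 4.37 points between the lowest and the highest pool. The chi-square statistic of the 10 genes' counts against all other counts over the 4 technical replicates lay between 8.03 and 22.4 on 3 degrees of freedom, with p under 0.05 in 9 of 9 pools. The share of a was highest in 9 of 9 pools, by 0.033 points above the pool's mean on average, that of b was lowest in 7 and that of d in 2. Of single genes, Cytb carried the clearest order: its share of all counts was highest in a and lowest in d in 9 of 9 pools, on average 0.84% above and 1.02% below the pool's mean. Co1 was highest in a in 0 of 9 pools. Technical replicate b had the most reads and d the fewest in 9 of 9 pools. The labels do not say what the letters stand for, and the order was noticed in these data, with no test made of it.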
